A study of Mus musculus with 8 samples.

Results

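The genes described here are Agr2 and 8 genes of the unfolded protein response: Hspa5, Xbp1, Ddit3, Creld2, Sdf2l1, Herpud1, Atf4 and Trib3. They were taken by symbol from the count tables of 2 mouse pancreatic tumors, where they are 9 of 27775 gene rows, each with 1 row. The tumors came from KPC mice, which carry LSL-Trp53R172H/+ and Pdx-1-Cre, with Cre under the Pdx-1 promoter acting in pancreatic cells, and which develop pancreatic ductal adenocarcinoma. Both mice were untreated, and their ages are not given in the labels. One tumor is labelled medium size and one large size, and the 4 technical replicates of each were pooled in its table. With 1 tumor of each size no test between sizes exists, and every interval below is an exact 95% interval for counting error alone.

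The unfolded protein response is the programme by which a cell adjusts the folding capacity of its endoplasmic reticulum (ER) to the load of secreted and membrane proteins. The sensor IRE1 (Ern1, and Ern2 in mucus-secreting epithelium) splices the mRNA of Xbp1 into a form that encodes an active transcription factor, ATF6 is cleaved into another, and PERK (Eif2ak3) slows translation while it favours that of Atf4. Their targets include the chaperone BiP (Hspa5), its cochaperone Sdf2l1, the folding factor Creld2, the degradation factor Herpud1, and, downstream of ATF4, the transcription factor CHOP (Ddit3) and the pseudokinase Trib3. Agr2 encodes a protein disulfide isomerase of the ER that secretory epithelia use to make mucins, and pancreatic carcinoma cells are known to express it. Counts of 3′ tags do not tell spliced from unspliced Xbp1 mRNA, and they do not report the translation of Atf4.

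The promoters of these genes are shown because the response acts through a few short DNA elements. All 9 genes had an entry in the RefSeq promoter table (GRCm38.p6, the mm10 assembly), and the 250 bases before each start were searched on both strands. The letters searched were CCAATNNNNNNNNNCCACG for the ER stress response element (ERSE), ATTGG and CCACG parted by 1 base for ERSE-II, whose CCACG it shares with ERSE, and TGATGNAA for the element that ATF4 and its partners bind (CARE). ERSE letters stood in 0.113% of all 32851 promoter windows, ERSE-II letters in 0.0304% and CARE letters in 3.45%. Hspa5, on the plus strand of chromosome 2 (chr2:34771840-34772089), held ERSE letters 65 to 47 bases before its RefSeq start, which lies downstream of the first start that GENCODE M21 lists for it. Creld2 (chr15:88819396-88819645, plus strand) held ERSE letters on the opposite strand, 126 to 108 bases before its start. Herpud1 (chr8:94386179-94386428, plus strand) held ERSE-II letters 52 to 42 bases before its start and CARE letters on the opposite strand at 112 to 105 bases. The windows of Agr2 (chr12:35992675-35992924, plus strand), Xbp1, Ddit3, Sdf2l1, Atf4 and Trib3 held none of these letters. The 3 windows with a match and that of Agr2, whose levels ranged most widely, are written 5′ to 3′ with the matching letters in capitals.
Hspa5: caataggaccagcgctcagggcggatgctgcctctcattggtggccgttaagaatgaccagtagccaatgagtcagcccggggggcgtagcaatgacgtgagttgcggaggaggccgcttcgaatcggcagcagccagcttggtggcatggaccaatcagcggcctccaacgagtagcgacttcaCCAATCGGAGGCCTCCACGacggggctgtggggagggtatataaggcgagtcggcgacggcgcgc
Creld2: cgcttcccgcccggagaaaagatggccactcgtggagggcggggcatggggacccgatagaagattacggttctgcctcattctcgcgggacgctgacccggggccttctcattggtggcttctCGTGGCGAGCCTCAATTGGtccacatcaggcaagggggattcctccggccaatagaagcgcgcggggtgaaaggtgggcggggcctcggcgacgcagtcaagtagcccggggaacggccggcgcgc
Herpud1: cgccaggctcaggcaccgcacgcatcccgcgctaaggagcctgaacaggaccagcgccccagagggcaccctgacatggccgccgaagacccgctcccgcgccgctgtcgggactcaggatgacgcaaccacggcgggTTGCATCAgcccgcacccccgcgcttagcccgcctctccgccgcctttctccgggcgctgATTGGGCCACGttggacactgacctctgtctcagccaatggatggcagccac
Agr2: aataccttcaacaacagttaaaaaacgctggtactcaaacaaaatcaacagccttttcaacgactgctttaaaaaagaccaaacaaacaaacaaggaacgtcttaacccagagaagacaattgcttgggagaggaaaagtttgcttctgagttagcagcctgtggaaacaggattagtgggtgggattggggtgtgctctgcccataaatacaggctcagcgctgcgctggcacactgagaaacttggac

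The medium size tumor gave 2812 cells with a median of 5456.5 UMIs (unique molecular identifiers, each 1 captured mRNA molecule) and 20301669 UMIs in all, and the large size tumor 1533 cells with a median of 1037 and 2239012 in all. Cells were clustered in each tumor without the listed pathway genes, and clusters were called from marker genes. In the medium size tumor, 2330 cells (82.9%) in clusters 1 to 6 and 8 to 10 were epithelial-like, 236 monocyte/macrophage-like, 81 mesothelial-like and 39 endothelial-like, and clusters 12 and 13 were left unnamed. In the large size tumor, 957 cells (62.4%) in clusters 3 to 8 were epithelial-like, 252 monocyte/macrophage-like, 50 stromal-like and 11 endothelial-like, and cluster 1, with 263 cells, was left unnamed. That cluster passed 2 of 11 epithelial markers and was called epithelial-like at resolution 0.4, with 20 principal components and with all variable genes kept, and 82.8% of the cells of the large size tumor kept their class in the last of these. The tables shared 5 cell barcodes. Levels are UMIs of the summed cells scaled to a total of 1e+06 (CPM), and a difference is called past 2-fold. A minimum of 200 UMIs in the compared cells set which genes formed the background. In the tumors as wholes, 8 of the 9 genes passed it in the medium size tumor (Trib3, at 181 UMIs, did not) and 3 of 9 (Agr2, Hspa5 and Atf4) in the large size tumor, where Trib3 had 10 UMIs and Ddit3 32. The 3-count floor was 0.148 CPM in the medium and 1.34 CPM in the large size tumor as wholes.

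Agr2 was the gene of the 9 with the widest range across cell groups. In the medium size tumor it stood at 917 CPM in epithelial-like cells and 221 CPM in all others, a ratio of 4.14 (3.79 to 4.54) that reached 7.45 without unnamed clusters, and in the large size tumor at 1374 against 26.7 CPM, a ratio of 51.5 (32.9 to 85.8) that ranged from 7.74, with classes called cell by cell, to 76.9, without unnamed clusters. It was the 1 gene of the 9 past 2-fold higher in epithelial-like cells in each tumor, joined in the medium size tumor by Herpud1, at 2.02, when the unnamed clusters were left out, and 12.2% of 7838 genes were past 2-fold higher in the medium and 8.08% of 1547 in the large size tumor. Sdf2l1 was past 2-fold lower in the large size tumor, at 0.330 (0.187 to 0.573), or 0.134 with thinned cells, from 24 UMIs in epithelial-like and 34 in other cells, under the minimum of the background, and none of the 9 was in the medium, against 7.3% and 7.87% of genes. These counts moved with the calls of cells. In the medium size tumor Sdf2l1 went from 0.517 to 0.478 without the cells of highest doublet scores and Ddit3 from 0.986 to 0.463 at resolution 1.2, and in the large Hspa5 went from 0.602 to 0.448 without unnamed clusters and Ddit3 from 1.40 to 0.474 with classes called cell by cell. The smaller ratio of the medium size tumor goes with non-epithelial clusters that held Agr2 beside other epithelial mRNA. Unnamed cluster 12 had Agr2 at 810 CPM, passed 9 of 11 epithelial and 10 of 11 macrophage markers, and had 48.5% of its cells in the highest 5% of doublet scores. Endothelial-like cluster 14 had Agr2 at 435 CPM and passed 4 of 11 epithelial markers. The part of doublets and free RNA in these levels was not tested. In monocyte/macrophage-like cells Agr2 was at 32.9 CPM in the medium and 20.5 CPM in the large size tumor. The part of free RNA in this level was not tested.

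Among the carcinoma clusters of the medium size tumor, Agr2 differed widely. It was highest in cluster 2, whose leading genes were the gastric pit genes Gkn1, Gkn2 and Gkn3, at 2873 CPM (2816 to 2931). Cluster 1, led by Tff3, Ly6d and Reg1, followed at 1289 CPM (1247 to 1331), and cycling cluster 4, led by Ccnb2, at 986 CPM (946 to 1028). The levels then dropped to 230 CPM (208 to 253) in the Inhba and Bmp2 cluster 5 and 122 CPM (105 to 141) in the Sox11 cluster 6. Cluster 3, led by Yap1 and Birc2, had 83.0 CPM (72.3 to 94.7) and cluster 8, led by Ero1l, 77.6 CPM (62.4 to 95.4), neighbours whose intervals overlap. The Krt17 and Tnc cluster 9 at 45.1 CPM (32.5 to 61.0) and cycling cluster 10 at 44.7 CPM (34.8 to 56.6) did not stand apart from each other or from the macrophage-like cluster 7, at 34.8 CPM (22.7 to 51.0). The 2 cycling clusters thus lay near opposite ends of the Agr2 order. Cluster 10, but not cluster 4, passed 5 of 8 mesenchymal markers, as did clusters 3 and 5. Dcun1d5 was among the leading genes of both cluster 10 and cluster 3.

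In the large size tumor Agr2 spanned 102-fold (56.7 to 205) among epithelial-like clusters. Cluster 7, led by Lgals2, Dmbt1 and Agr2, had 5786 CPM, the gastric pit cluster 3 had 2435 CPM and cluster 8, which passed 6 of 10 goblet and 8 of 12 enterocyte markers, had 1875 CPM. Cycling cluster 5 had 493 CPM, cluster 6 had 181 CPM, and the enterocyte-like cluster 4, with 10 of 12 enterocyte markers, had 56.8 CPM (28.3 to 102). Unnamed cluster 1 had 32.3 CPM (17.7 to 54.2), which overlaps the enterocyte-like cluster and the macrophage-like cluster 2 (5.6 to 52.4). Agr2 mRNA was also unevenly spread over cells. The 233 medium size epithelial-like cells with the most Agr2 UMIs, 10% of them, held 73.8% of its UMIs, with up to 295 in a cell. The shares of the other genes ran from 36.1% for Hspa5 to 70.4% for Ddit3 and 100% for the sparse Trib3. Agr2 also differed between clusters, and within medium size clusters 2, 1 and 4 its share was 55.0%, 52.2% and 64.2%.

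**Figure D1:**
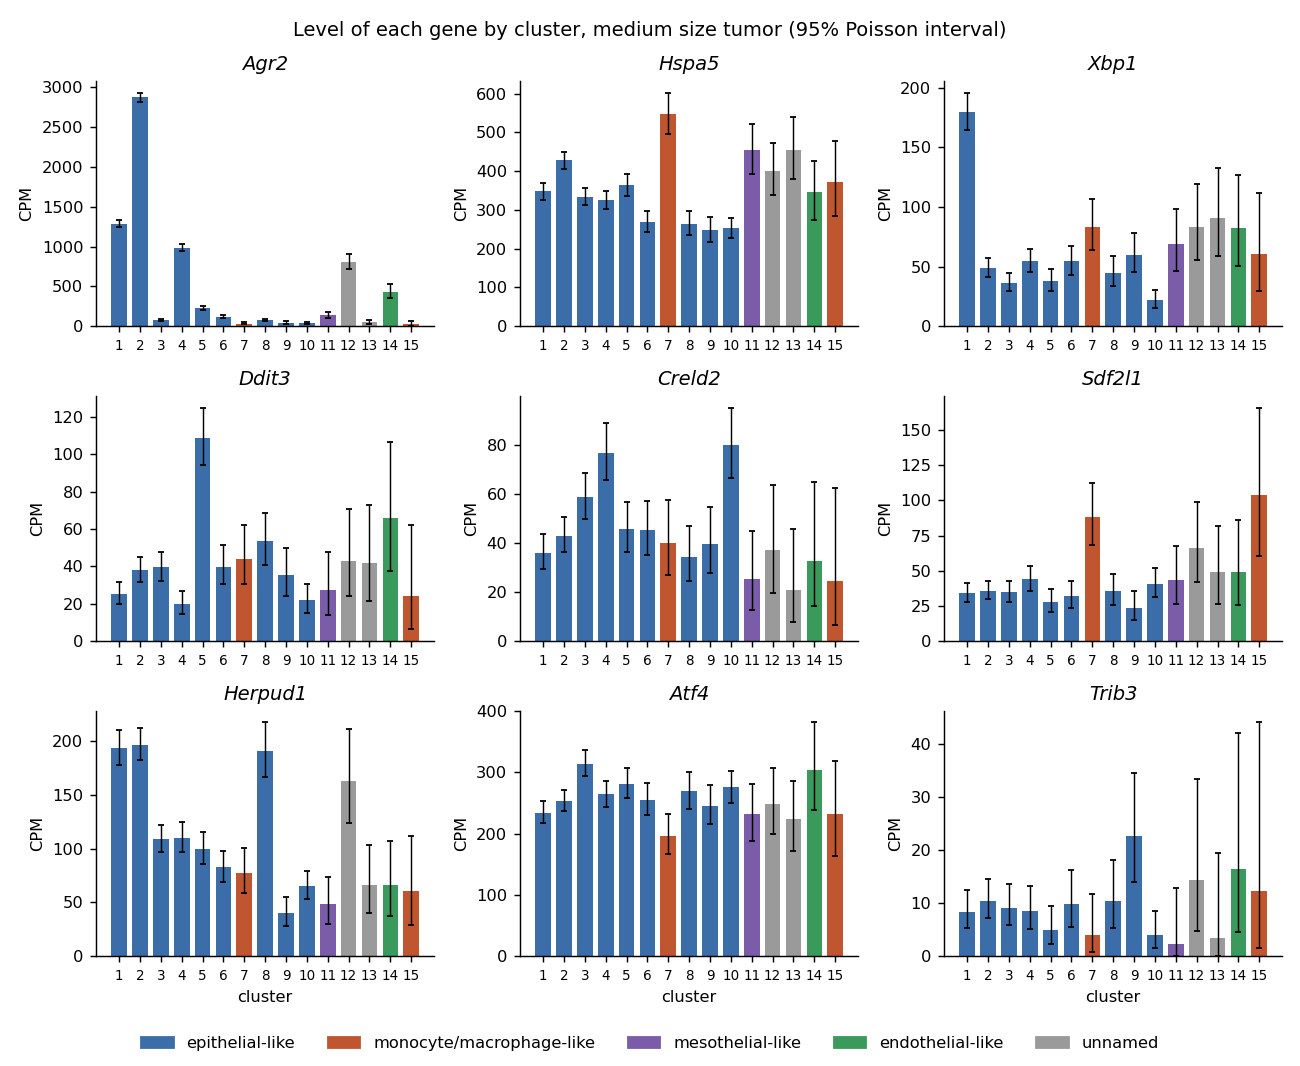
Level of each of the 9 genes in every cluster of the medium size tumor, as CPM of summed UMIs on a linear axis with exact 95% Poisson intervals. Agr2 runs from 24.4 CPM in macrophage-like cluster 15 to 2873 CPM in gastric pit cluster 2, whereas Hspa5 and Atf4 stay within narrow bands.

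**Figure D2:**
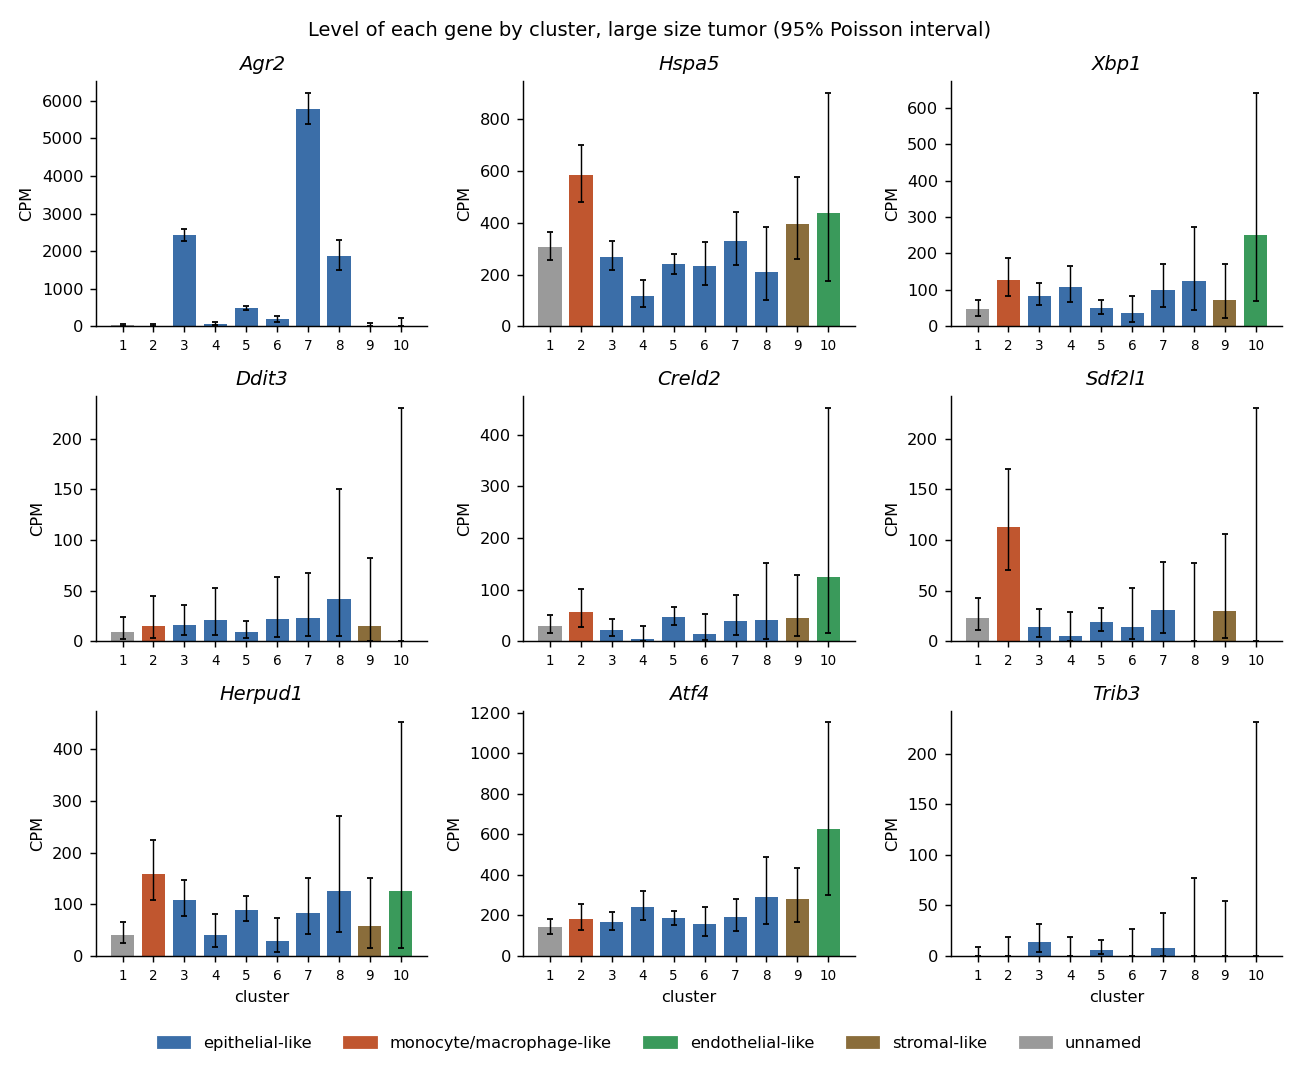
Level of each of the 9 genes in every cluster of the large size tumor, drawn in the same way. Agr2 reaches 5786 CPM in cluster 7, and the wide intervals of Ddit3, Sdf2l1 and Trib3 show how few UMIs they had.

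Genes whose pattern over the 9 medium size clusters was most like that of Agr2 were Liph (Pearson's r of log2 levels 0.977), Fut2 (0.976), Ern2 (0.972), Mcpt1 (0.959) and Cant1 (0.958). Over the 6 large size clusters their r with Agr2 ran from -0.365 for Fut2 to 0.799 for Mcpt1, with Ern2 at 0.680. These clusters share a library and are not independent. Of the secretory list, Spdef, a transcription factor of goblet and mucous cells, was at 70 CPM in cluster 2, 29 CPM in cluster 4 and 18 CPM in cluster 1, and at 1 CPM in cluster 10.

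The signalling arm was represented by Xbp1. In the medium size tumor Xbp1 was highest in cluster 1 at 180 CPM (164 to 196), above every other epithelial-like cluster, which lay between 22 CPM (15.3 to 30.8) in cycling cluster 10 and 60.1 CPM (45.4 to 78.1) in cluster 9. Gastric pit cluster 2, the highest in Agr2, had only 48.8 CPM of Xbp1. Xbp1 of the large size tumor ran from 36.1 to 125 CPM with 5 to 33 UMIs a cluster, and the order of neighbours could not be read at this depth. It did not separate epithelial-like from other cells, with ratios of 0.828 (0.706 to 0.975) in the medium and 0.943 in the large size tumor, which became 0.545 where cluster 1 of that tumor was called epithelial-like at resolution 0.4. The IRE1 paralog Ern2 was at 31 CPM in cluster 2, 19 CPM in cluster 1 and 12 CPM in cluster 4 of the medium size tumor, at 4.42 CPM or less in its other epithelial-like clusters, and listed at 0 in clusters 7 and 9. Of the 12 sensors and transducers measured there, 2 were past 2-fold higher in epithelial-like cells (Ern2 at 3.16 and Creb3l4 at 2.55) and none lower, near the 12.2% and 7.87% of all genes, with a list median of 0.985 against 1.161 for all genes.

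The chaperone Hspa5 was broadly expressed. Across the epithelial-like clusters of the medium size tumor it ranged from 248 CPM (217 to 282) in cluster 9 to 428 CPM (406 to 450) in cluster 2, a span of 1.72-fold (1.5 to 1.99) that 87.3% of genes exceeded. Cluster 10 at 253 CPM, cluster 8 at 265 CPM and cluster 6 at 269 CPM could not be told from cluster 9. Clusters 1, 3, 4 and 5 lay between 325 and 363 CPM. Hspa5 of the large size tumor ran from 119 CPM in enterocyte-like cluster 4 to 329 CPM in cluster 7, 2.77-fold (1.63 to 4.81). In both tumors Hspa5 was lower in epithelial-like than in other cells, with ratios of 0.729 (0.682 to 0.780) and 0.602 (0.513 to 0.706). The genes most like Hspa5 over the medium size clusters were Tmem258 (r 0.884), Slc33a1 (0.858), Ncald (0.843), Lyrm5 (0.838) and Tex2 (0.838). Over the large size clusters their r with Hspa5 ran from 0.00514 for Tex2 to 0.849 for Tmem258.

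The folding factors Creld2 and Sdf2l1 had their own orders. Creld2 was highest in the 2 cycling clusters of the medium size tumor, at 79.7 CPM (66.3 to 95.1) in cluster 10 and 76.6 CPM (65.6 to 88.9) in cluster 4, and lowest at 34.5 CPM (24.6 to 47.0) in cluster 8. Creld2 of the large size tumor was at 46.3 CPM in cycling cluster 5, from 30 UMIs, and its other epithelial-like clusters had too few UMIs to be ordered. Sdf2l1 lay between 23.6 CPM (14.8 to 35.8) and 43.8 CPM among the carcinoma clusters of the medium size tumor, and between 0 and 30.6 CPM in the large size tumor.

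Monocyte/macrophage-like cells held more Sdf2l1 and Hspa5 mRNA per UMI than epithelial-like cells in both tumors. Sdf2l1 stood at 91.1 against 35.0 CPM in the medium size tumor, a ratio of 2.60 (2.04 to 3.28), and at 113 against 15.7 CPM in the large size tumor, a ratio of 7.15 (3.82 to 13.3) from 22 and 24 UMIs, under the minimum of the background there. Hspa5 had ratios of 1.54 (1.40 to 1.69) and 2.46 (1.97 to 3.04), and both macrophage-like clusters of the medium size tumor were high in Sdf2l1, cluster 7 at 88.4 CPM and cluster 15 at 104 CPM. With each cell thinned to the same depth within a tumor, Sdf2l1 was seen in 16.5% of macrophage-like and 7.9% of epithelial-like cells in the medium size tumor (2500 UMIs a cell), and in 4.8% and 0.4% in the large size tumor (500 UMIs). At that depth Agr2 was seen in 6.8% of macrophage-like and 36.8% of epithelial-like cells in the medium size tumor, and 1.2% and 19.7% in the large. Unthinned, the Sdf2l1 shares were 27.5% and 20.5% in the medium and 7.94% and 2.51% in the large size tumor. Past 2-fold higher in macrophage-like cells were 7.21% of 7534 genes in the medium and 8.93% of 1210 in the large size tumor, and of the 9 genes Sdf2l1 in the medium and Sdf2l1 and Hspa5 in the large size tumor. Markers of plasma cells, whose ER is rich in these chaperones, were at or near 0 in the macrophage-like cells. Of 4 measured, Mzb1, Tnfrsf17 and Derl3 were at 0 in both tumors and Jchain had 2 UMIs in each. Their summed level was 2.2 and 10.2 CPM there, against 28.1 and 31.5 CPM in epithelial-like cells. Both macrophage-like sums lie under the 3-count floors of those cells, 3.29 and 15.3 CPM. The immunoglobulin genes of the plasma list, such as Igkc, were not measured. The part of plasma cells in the Sdf2l1 and Hspa5 levels was not tested.

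The other genes divided. Agr2 was 27.8-fold (19.5 to 41.3) and 67.2-fold (26.2 to 247) lower in macrophage-like cells and the 1 gene past 2-fold lower in each tumor, where 29.6% and 21.3% of all genes were. Xbp1 had ratios of 1.2 (0.934 to 1.53) and 1.79 (1.11 to 2.79), and Ddit3 was at 0.998 (0.697 to 1.39) and, from 3 and 24 UMIs, 0.976 (0.188 to 3.21). Atf4 was at 0.763 (0.656 to 0.884) and 0.969. Herpud1 turned from 0.559 (0.432 to 0.711) in the medium to 1.91 (1.24 to 2.84) in the large size tumor. In the chaperone list, 8 of 18 genes of the medium size tumor had a ratio over 1, as did 27.2% of all genes, with a median of 0.963 against 0.708. In the large size tumor 7 of 8 did, against 33.7% of all genes, with a median of 1.5 against 0.796. In the medium size tumor, 1 of the 18 chaperones was past 2-fold higher in macrophage-like cells and 3 were lower, against 7.21% and 29.6% of all genes. Among those over 1, Dnajb11, a BiP cochaperone, had a ratio of 1.51 and Manf, a factor secreted under ER stress, 1.82. In the degradation list 7 of 18 had a ratio over 1, with a median of 0.959, and 1 was past 2-fold each way. Edem1, which takes misfolded glycoproteins to degradation, had 2.65.

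**Figure D3:**
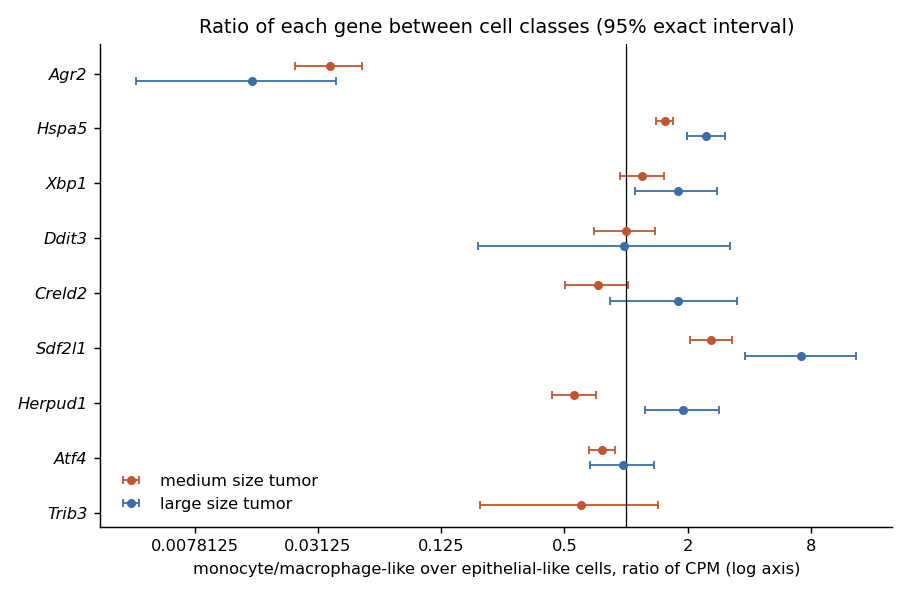
Ratio of CPM in monocyte/macrophage-like over epithelial-like cells for each gene in each tumor, on a log axis with 95% exact intervals. Sdf2l1 and Hspa5 lie above 1 in both tumors, Agr2 far below 1, and Herpud1 on opposite sides. Trib3 is left out for the large size tumor, where macrophage-like cells had 0 UMIs of it.

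Herpud1, which brings ubiquitin ligases of ER-associated degradation together, was high in clusters that differed in the other genes. In the medium size tumor it stood at 197 CPM (182 to 212) in gastric pit cluster 2, 194 CPM (178 to 211) in cluster 1 and 191 CPM (166 to 217) in cluster 8, 3 values that could not be told apart. Cluster 8, led by Ero1l (247 CPM), an ER oxidase that hypoxia also induces, was by contrast low in Agr2. Herpud1 was lowest in cluster 9 at 39.7 CPM (28.0 to 54.8), 4.95-fold (3.56 to 7.10) below the highest, a span that was 3.01-fold at resolution 0.4. Of the 17 other degradation genes that passed the minimum, 10 were past 2-fold between clusters, against 72.8% of 7317 genes, with a median of 2.17 against 2.53 for all genes.

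Of the PERK and ATF4 arm, Atf4 varied least. It lay between 234 CPM (217 to 253) in cluster 1 and 314 CPM (293 to 337) in cluster 3 of the medium size tumor, 1.34-fold (1.21 to 1.49), a span that 99.3% of genes exceeded. Ddit3 was highest in cluster 5, led by Inhba and Bmp2, at 109 CPM (94.1 to 125), with cluster 8 next at 53.5 CPM (41.0 to 68.5) and cycling cluster 4 lowest at 19.9 CPM (14.5 to 26.7). A cell of cluster 5 held up to 38 of its 197 Ddit3 UMIs, and the 10% of cells with the most held 69.5%, near the 70.4% over all epithelial-like cells. Thinned to 2500 UMIs, 17.7% (12.9 to 23.4) of cluster 5 cells still held Ddit3, and the other epithelial-like clusters ranged from 3.70% to 9.64%. Of the 31 genes of the PERK and ATF4 list, of which 24 passed the minimum, 2 had their highest level in cluster 5. These were Ddit3 and Ppp1r15a, which encodes the phosphatase subunit GADD34, where 16.8% of all 7317 genes were highest in cluster 5. The list was most often highest in cluster 10, with 7 genes against 12.8% of all genes. Cluster 9 had 6, Trib3 among them, against 27.7%. Atf4 was at 282 CPM in cluster 5, next to cluster 3, whereas Trib3 was at 4.97 CPM and Atf3 at 258 CPM, against 874 CPM in cluster 9 and 800 CPM in cluster 1. Immediate early genes, which dissociation of tissue can induce, summed to 4846 CPM in cluster 5, between 2543 CPM in cluster 10 and 7391 CPM in cluster 1, and their part in Ddit3 was not tested. Trib3 was highest in cluster 9, at 22.5 CPM (14 to 34.5), and from 3.89 to 10.4 CPM in the other epithelial-like clusters, with 165 UMIs in all. Neither gene had, in the large size tumor, enough UMIs to order the clusters.

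Counted together, 6 of the 9 genes (Agr2, Xbp1, Trib3, Ddit3, Herpud1 and Creld2) were past 2-fold between the highest and lowest epithelial-like cluster of the medium size tumor, as were 72.8% of 7317 genes. Without Trib3, which was under the minimum, these were 5 of 8, and the share among the members is near or under that background. In the large size tumor, Agr2 and Hspa5 of the 3 genes that passed the minimum there were past 2-fold, with Atf4 at 1.83 (0.868 to 3.75), and the background was 85.9% of 1065 genes. Of the wider lists in the medium size tumor, sensors and transducers spread most among those of the response, 10 of 11 past 2-fold with a median of 4.28, then the PERK and ATF4 arm, 20 of 24 with 4.11, while chaperones (12 of 18, median 2.16), ER-associated degradation (11 of 18, 2.25) and protein disulfide isomerases (8 of 15, 2.12) lay close together. Translocon and ER exit genes had 11 of 24 and 1.88. Folds between the highest and lowest cluster also widen where genes have few UMIs, and the lists differed in level. The 12 sensors and transducers summed to 170 to 447 CPM in an epithelial-like cluster, the 20 chaperones to 2510 to 3585 CPM. The 31 genes of the PERK and ATF4 arm summed to 2838 to 3876 CPM. The part of depth in these spreads, and in the spans of Hspa5 and Atf4, was not tested. Within the ATF4 arm, the serine synthesis gene Phgdh ran from 17 CPM in cluster 1 to 443 CPM in cluster 10, and Psat1 from 5 to 73 CPM in the same clusters.

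Between the tumors, clusters of like markers were set side by side, since the epithelial-like classes differ in makeup. Medium size cluster 1 passed 11 of 11 epithelial markers, but its 10 leading genes held none of them and held Ly6d, a gene of the B cell list. The large size tumor also gave fewer UMIs a cell. In gastric pit clusters (large 3, medium 2), Agr2 had 2435 against 2873 CPM, a ratio of 0.847 (0.790 to 0.908), close to the median of all genes, 0.887. Hspa5 was at 0.630 (0.508 to 0.772), Herpud1 at 0.553 (0.391 to 0.761), Atf4 at 0.666 (0.506 to 0.862) and Sdf2l1, with 5 UMIs in the large size tumor, at 0.381 (0.121 to 0.913). Xbp1 went the other way, at 84.3 against 48.8 CPM, a ratio of 1.73 (1.14 to 2.55). Past 2-fold lower were Ddit3, from 6 UMIs, and Sdf2l1, 2 of the 9 genes, and none higher, but both were under the minimum. Of the 4 genes that passed it none was past 2-fold, where 21.2% of 2520 genes were lower and 6.9% higher.

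The medium size tumor had 2 cycling clusters with 8 of 8 cycling markers, and the direction for Agr2 depended on which was compared. Against medium cluster 4, which passed 9 of 11 epithelial markers, large cluster 5 had Agr2 at 0.499 (0.443 to 0.562), Hspa5 at 0.735 (0.614 to 0.876), Sdf2l1 at 0.423 (0.211 to 0.772) and Atf4 at 0.701 (0.571 to 0.854), with an all-gene median of 0.907. Agr2, Ddit3 and Sdf2l1, 3 of the 9, were past 2-fold lower there, and 1 of the 5 that passed the minimum, Agr2, where 19.2% of 2068 genes were lower and 7.35% higher. Against medium cluster 10, which passed 6 of 11 epithelial markers, Agr2 was 11-fold (8.46 to 14.5) higher, at 493 against 44.7 CPM, Hspa5 was at 0.947 (0.781 to 1.14), Xbp1 at 2.31 (1.39 to 3.85), Sdf2l1 at 0.454 (0.223 to 0.849) and Atf4 at 0.672 (0.544 to 0.825), with an all-gene median of 0.976. Ddit3, from 6 UMIs in the large size tumor, was at 0.420 (0.144 to 1.01). Xbp1, Sdf2l1 and Ddit3 were past 2-fold there but under the minimum. In that pair 8.08% of 1510 genes were past 2-fold higher and 14.4% lower, and Agr2 was the 1 gene called of the 3 that passed the minimum. In the macrophage-like clusters (large 2, medium 7) Hspa5 was at 1.07 (0.859 to 1.32) and Sdf2l1 at 1.27 (0.748 to 2.09). Herpud1 was at 2.04 (1.28 to 3.21) and Ddit3, from 3 UMIs in the large size tumor, at 0.347 (0.0681 to 1.11). Both were under the minimum of the background, which only Hspa5 passed. Of 645 genes in that pair, 9.77% were past 2-fold higher, 12.4% lower and the median was 1.03.

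**Figure D4:**
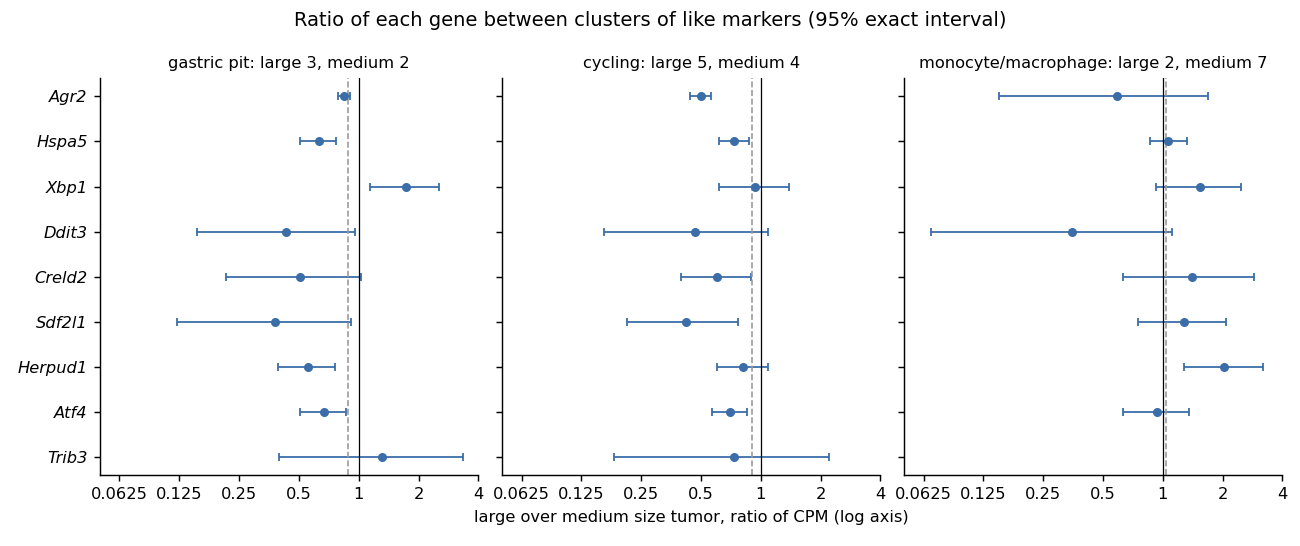
Ratio of CPM in the large over the medium size tumor for each gene in 3 pairs of clusters with like markers, on a log axis with 95% exact intervals. The dashed line is the median of all genes in that pair. Hspa5 and Atf4 lie below it in the gastric pit and the plotted cycling pair and Herpud1 above it in the macrophage-like pair. Trib3 has no point in the macrophage-like pair.

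Over all epithelial-like cells the ratios of large to medium were 1.5 (1.43 to 1.57) for Agr2, 1.09 (0.884 to 1.32) for Xbp1, 0.710 (0.637 to 0.790) for Hspa5 and 0.714 (0.632 to 0.804) for Atf4. Herpud1 was at 0.623 (0.517 to 0.745), Creld2 at 0.614 (0.449 to 0.821), Sdf2l1 at 0.449 (0.286 to 0.674) and Ddit3 at 0.386 (0.246 to 0.579), the last pair from 24 UMIs each. With thinned cells Creld2 was at 0.407 and Sdf2l1 at 0.242. Sdf2l1 and Ddit3, 2 of the 9, were past 2-fold lower and none was past 2-fold higher, a count that became 4 with thinned cells and 1 with classes called cell by cell. The Agr2 ratio ranged from 1.18 to 10.1 over the alternatives, the last without clusters that passed goblet or enterocyte markers, which took out the 3 medium size clusters highest in Agr2 (1, 2 and 4) and large clusters 4, 7 and 8. Of 7568 genes 19.4% were past 2-fold lower and 5.81% higher, and the median was 0.881. The PERK and ATF4 arm as a list had 10 of 24 genes past 2-fold lower, none higher and a median of 0.703, with Nupr1, a stress-induced chromatin factor, at 0.24. Immediate early genes had 4 of 12 lower and a median of 0.611, with Jund at 0.24, and their part in the lower level of the ATF4 arm was not tested. Chaperones had 5 of 18 lower, 1 higher and a median of 0.864, with Dnajb9 at 2.00 and Sil1 at 0.22. Protein disulfide isomerases had 2 of 15 lower, 1 higher and a median of 0.986, with Txndc12 at 2.55 and Pdia3 at 0.28.

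Within clusters of the medium size tumor, cells rich in Agr2 were compared with cells poor in it, the upper and lower groups of 170 cells in cluster 1, 164 in cluster 2 and 76 in cluster 4 when each cluster was cut into 3 equal groups by Agr2 level. Sdf2l1 was higher in Agr2-rich cells, 55 against 15 UMIs in cluster 1, a ratio of CPM of 3.34 (1.86 to 6.36), 59 against 21 UMIs in cluster 2, a ratio of 3.47 (2.08 to 6.02), and 1.62 (0.94 to 2.87) in cluster 4. Hspa5 had ratios of 1.31 (1.12 to 1.53), 1.52 (1.33 to 1.72) and 1.12 (0.93 to 1.35) in the same order. Past 1.5-fold higher were 9.95%, 6.3% and 6.75% of the genes that passed the minimum in these clusters, and past 1.5-fold lower 10.4%, 3.44% and 3.63%. Sdf2l1 itself was under that minimum in these cells. Of the chaperones that passed it, 8 of 8 had ratios over 1 in cluster 1 (median 1.51), 9 of 9 in cluster 2 (1.42) and 7 of 8 in cluster 4 (1.09), where 53.0%, 50.3% and 49.3% of all genes did, with medians of 1.02, 1.00 and 0.993. Hsp90b1, the ER form of HSP90, was at 1.89 and Manf at 1.84 in cluster 1, and the disulfide isomerase Pdia3 was at 1.86, 1.76 and 1.51.

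The ratios of the other genes differed over the 3 clusters. Xbp1 was at 0.67 (0.54 to 0.84) in cluster 1 but 1.46 and 1.52 in clusters 2 and 4, Creld2 at 1.89 (1.16 to 3.15), 1.04 and 0.61 (0.42 to 0.89), and Atf4 at 0.57 (0.47 to 0.70), 1.00 and 0.86. Ddit3 was at 1.99 (1.25 to 3.23) in cluster 2, from 50 against 31 UMIs, and at 0.70 (0.37 to 1.30) and 1.67 (0.718 to 4.18) in clusters 1 and 4. The intervals of Herpud1 (0.886, 1.15 and 0.887) and of Trib3, from 5 to 16 UMIs a group, included 1 in each cluster. In cluster 1, immediate early genes were past 1.5-fold lower in Agr2-rich cells for 12 of 12 genes, with a median of 0.446, and in cluster 2 11 of 12 were over 1, with a median of 1.2. Their part in the Atf4 values was not tested. Median depth was 4376 UMIs in the Agr2-poor and 4708.5 UMIs in the Agr2-rich cells of cluster 1, 6035 and 4933.5 in cluster 2, and 5925 and 7622 in cluster 4, and its part in these ratios was not tested. The same groups were shallow in the large size tumor, with Hspa5 at 1.33 (0.79 to 2.28) in gastric pit cluster 3 and 0.97 in cluster 7. There 5% and 4.82% of genes were past 1.5-fold higher and 2.5% and 3.61% lower.

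**Figure D5:**
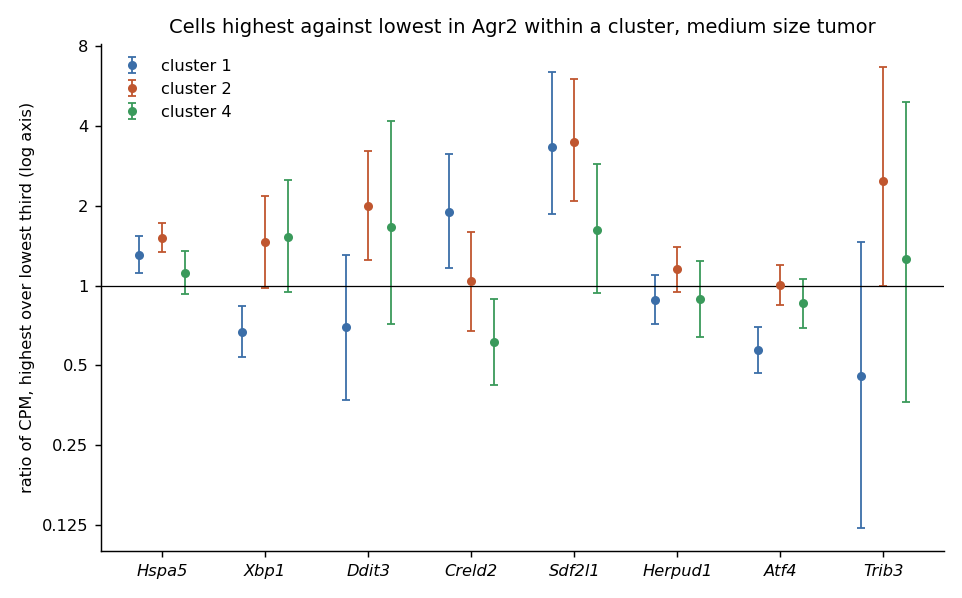
Ratio of CPM in Agr2-rich over Agr2-poor cells for each of the other 8 genes in clusters 1, 2 and 4 of the medium size tumor, on a log axis with 95% exact intervals. Sdf2l1 and Hspa5 lie above 1 in clusters 1 and 2, Atf4 and Xbp1 below 1 in cluster 1, and Ddit3 above 1 in cluster 2.

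Across the 2330 epithelial-like cells of the tumor of medium size, with levels centred within clusters, the correlations with Hspa5 were weak, and the cells share a library and differ in depth. Hsp90b1 had the highest r, 0.207, followed by Calr at 0.201 and Manf and Dnajc3 at 0.164, all of the chaperone list. Sdf2l1 (r 0.137), Creld2 (0.135), Agr2 (0.129) and Atf4 (0.126) came in places 6 to 9 of 7316 genes, Herpud1 in place 29, Ddit3 in place 119 and Xbp1 in place 157, while Trib3 was under the minimum. Those 7 genes were all in the highest 5%, which began at r 0.0582, and 5 of 7 were after thinning, when Xbp1 and Atf4 dropped out. The genes did not correlate as a group: with Agr2, only Sdf2l1 (r 0.171, place 59) and Hspa5 (0.129, place 122) of the same genes were in the highest 5%, and Atf4 (r -0.0465) came in place 6737. With Atf4, Ddit3 (r 0.146, place 32) and Hspa5 (0.126, place 58) were in it, and Sdf2l1 came in place 6378. The highest r with Atf4 were those of Atf3 (0.251), Fosb (0.231), Eif1 (0.227), Junb (0.211) and Egr1 (0.211). Fosb, Junb and Egr1 are immediate early genes, whose part in these correlations was not tested. With each cell thinned to 2500 UMIs, Hspa5 was seen in 59.2% of 858 cells with Agr2 and 48.0% of 1472 cells without it, and Sdf2l1 in 10.0% and 6.66%. These shares pool the clusters, between which both genes differ. At the same depth Atf4 was seen in 59.1% of the 193 cells with Ddit3 and 44.5% of the others, and Trib3 in 5.18% and 1.73%.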

How the data were processed

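Single-cell 3′ mRNA libraries (10x Genomics, v2 chemistry) of 2 dissociated KPC tumors were analysed from the deposited UMI counts per gene and cell, which the authors made with Cell Ranger on mm10 (its version is not given in the sources used here) and which pool the 4 technical replicates of each tumor. A further allele that both mice carry is not reported here. Every deposited barcode was kept. Cells were clustered with Seurat 5.3.0 in R 4.3.3 (log normalization to 10000 UMIs, 2000 variable genes less 47 pathway genes in the medium and 41 in the large size tumor, 10 principal components, resolution 0.8). A cluster took a class with 3 or more markers, each seen in 10% of its cells at 25% of the level of the highest cluster, unless another class had 60% of its share of markers, limits set after earlier values were known. Scrublet (scanpy 1.11.5) called 0 doublets in the medium and 9 (0.587%) in the large size tumor, and none were removed.

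UMIs were summed over cells as CPM (scipy 1.17.1), with exact Poisson, binomial and conditional binomial 95% intervals and a floor of 3 counts, all for counting error only. The ratio code was run on simulated Poisson counts of 7838 genes, at the depths of medium size clusters 1 to 6 and of the rest. There 200 of 200 genes changed 3-fold passed the 2-fold threshold, and 95.4% of intervals held the true ratio. Those counts had no spread between cells beyond counting, so they check the code and not the coverage in real cells. No p-values were computed. The 9 genes and the pathway and marker lists were chosen with earlier results of these data known. List genes were named as the 3 highest or lowest ratios of a list, genes most like Agr2 and Hspa5 as the highest r of log2(CPM + 10) over clusters, and other named list genes and the leading correlated genes after their values were seen. Alternatives were other clusterings, doublet removal, thinning, classes called cell by cell, edgeR 4.0.16 scaling factors and subsets of clusters.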

Additional observations from a re-analysis of the deposited data

Results flagged for a closer look

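Herpud1 stood on opposite sides of 1 in the 2 tumors. Its ratio in monocyte/macrophage-like over epithelial-like cells was 0.559 (0.432 to 0.711) in the medium size tumor and 1.91 (1.24 to 2.84) in the large size tumor. With 1 tumor of each size the difference was not tested.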

How the results depend on the processing

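No paired analysis was possible because the technical replicates of each tumor are pooled in 1 table, and for the same reason no replicate could be left out. The count of genes past 2-fold higher in epithelial-like cells was 1 in the medium size tumor, and 2 without the cells of unnamed clusters, where Herpud1 reached 2.02. The count of genes past 2-fold apart between the tumors was 2, and became 4 with thinned cells and 1 with classes called cell by cell. For epithelial-like over other cells of the medium size tumor, Xbp1 turned from 0.828 to 1.14 at resolution 1.2 and 1.05 with thinned cells, and Creld2 from 1.58 to 0.949 with classes called cell by cell. In the large size tumor, Herpud1 (1.08) kept its side of 1 in 2 of 8 alternatives, with 0.559 the lowest, and Atf4 (1.07) in 3 of 8, with 0.773 the lowest, and at resolution 0.4 Xbp1 went from 0.943 to 0.545. The causes were not tested. Agr2 stayed over 1 in all alternatives run, from 3.66 to 7.45 in the medium and 7.74 to 76.9 in the large size tumor, and from 1.18 to 10.1 between tumors, the highest without clusters that passed goblet or enterocyte markers, among them the 3 highest in Agr2 in the medium size tumor. Hspa5 stayed under 1 in all of them, from 0.708 to 0.798, 0.448 to 0.617 and 0.679 to 0.828, and Sdf2l1 likewise, from 0.478 to 0.715, 0.134 to 0.347 and 0.242 to 0.518. Ratios for the large size tumor rest on 10 to 58 UMIs for Trib3, Ddit3 and Sdf2l1. The share of genes past 2-fold between tumors was 25.2% with the minimum of 200 UMIs and 50% of 17426 genes with none.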
